A study of Mus musculus with 40 samples.

Results

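Ankrd1, Ankrd2, Ankrd23, Csrp3, Xirp1 and Xirp2, 6 striated-muscle genes grouped for their part in the response of muscle fibres to strain and damage, were followed through mouse rib repair. They were taken by gene symbol from a table of 21204 genes that had passed the authors' filter on low counts, and all 6 were in it. The set was built around Ankrd1, which was chosen by its measured CPM at 2 days post-resection (2dpr), where immature mice had the lower level. That difference between the ages at 2dpr is therefore described here without a test for any of the 6 genes. The study compared bulk RNA sequencing of rib tissue from wild-type female C57BL/6 mice that were skeletally immature (7 weeks old) or skeletally mature (over 10 months old), with tissue taken at baseline, on the day of resection (0dpr) and at 2, 5 and 14dpr. Each of the 10 groups had 4 libraries, except mature mice at 5dpr with 3, because the library numbered 2 of that group was not analysed here. The methods give baseline as tissue taken before that surgery, whereas the labels of those samples describe tissue collected after it, so baseline is read here as the stage name alone. The labels call the baseline material composite tissue of bone, marrow and intercostal muscle and that of all later stages bone callus, so a change from baseline and a change in the tissue taken cannot be told apart.

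Ankrd1, Ankrd2 and Ankrd23 encode the muscle ankyrin repeat proteins, which bind the spring region of titin in the sarcomere and can also move to the nucleus. Csrp3 encodes muscle LIM protein, an adaptor of the Z-disc, and Xirp1 and Xirp2 encode the Xin proteins, which bind and bundle actin filaments where sarcomeres are built or repaired. All are known for transcripts that change when skeletal or heart muscle is stretched, exercised, denervated or injured. Ankrd1 is also widely used as a target gene of the YAP and TEAD transcription factors, including in cells other than muscle. A difference in level in whole rib tissue can come from the amount of muscle in the piece or from the amount of RNA per fibre, and in bulk samples fewer muscle cells and less RNA per cell cannot be told apart.

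The genes lie at 6 separate places in GRCm38, with positions and exons from the GENCODE annotation. Ankrd1 (ENSMUSG00000024803) is at chr19:36111961-36120099 on the minus strand and Ankrd2 (ENSMUSG00000025172) at chr19:42036000-42045110 on the plus strand. Ankrd23 (ENSMUSG00000067653) is at chr1:36530188-36536883 (minus), Csrp3 (ENSMUSG00000030470) at chr7:48830398-48848033 (minus), Xirp1 (ENSMUSG00000079243) at chr9:120013755-120023598 (minus) and Xirp2 (ENSMUSG00000027022) at chr2:67446002-67526614 (plus). Of the exonic bases of Ankrd23, 78.2% also belong to the predicted gene Gm42417 on the same strand, which was listed at 0 reads in all 39 libraries, so the deposited counts of Ankrd23 may miss reads that fall on both genes and its level is uncertain. Xirp1 lies within the span of Cx3cr1 but shares 0 exonic bases with it, and the antisense gene Gm13601 covers 1.4% of the Xirp2 exons and reached at most 3 reads in any library.

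Promoters are shown for the gene that rose at 2dpr, Ankrd1, and for Ankrd2, Csrp3 and Xirp2, which followed another course, so that their letters can be set beside their levels. RefSeq windows on GRCm38.p6 were found for 5 of the 6 genes (7 start sites), all but Xirp1, and the 250 bases before the start site are printed 5′ to 3′ on the gene's own strand. All motifs were searched on both strands. Capitals mark the letters GGAATG (the core of the TEAD or MCAT motif), the TATA box (TATAAA), and the CArG box and MEF2 site, which were searched as families of sequences. E-boxes (CANNTG) were searched too but are not capitalised. The windows are chr19:36119845-36120094 (Ankrd1, minus strand), chr19:42035777-42036026 (Ankrd2, plus strand), chr7:48848052-48848301 (Csrp3, minus strand, the first of its start sites) and chr2:67445752-67446001 (Xirp2, plus strand).
Ankrd1: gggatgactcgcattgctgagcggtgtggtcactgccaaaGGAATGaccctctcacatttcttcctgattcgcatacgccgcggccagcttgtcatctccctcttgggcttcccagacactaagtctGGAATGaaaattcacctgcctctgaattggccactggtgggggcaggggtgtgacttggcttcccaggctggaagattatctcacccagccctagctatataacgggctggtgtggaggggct
Ankrd2: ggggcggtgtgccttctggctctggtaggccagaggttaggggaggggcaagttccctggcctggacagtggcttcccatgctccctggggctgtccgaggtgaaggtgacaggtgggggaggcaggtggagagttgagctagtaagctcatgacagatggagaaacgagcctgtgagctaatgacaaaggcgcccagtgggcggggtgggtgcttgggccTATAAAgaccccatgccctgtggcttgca
Csrp3: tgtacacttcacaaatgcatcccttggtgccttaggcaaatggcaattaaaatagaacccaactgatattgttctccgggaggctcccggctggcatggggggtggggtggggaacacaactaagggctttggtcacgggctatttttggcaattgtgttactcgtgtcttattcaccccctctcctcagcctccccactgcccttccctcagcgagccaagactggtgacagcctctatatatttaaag
Xirp2: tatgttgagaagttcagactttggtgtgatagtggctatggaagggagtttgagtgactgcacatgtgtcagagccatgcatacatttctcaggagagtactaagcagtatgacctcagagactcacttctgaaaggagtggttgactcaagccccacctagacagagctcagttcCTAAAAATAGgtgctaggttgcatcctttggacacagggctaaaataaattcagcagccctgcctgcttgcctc

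The Ankrd1 window held 2 copies of GGAATG and 1 E-box. The Ankrd2 window held 1 TATAAA and 3 E-boxes, the Csrp3 window 4 E-boxes, and the Xirp2 window 1 MEF2 site and 2 E-boxes that overlap each other. Of 32851 RefSeq windows of 250 bases, 12.6% held the TEAD core on either strand, 12.4% a TATA box, 66.2% an E-box, 2.92% a MEF2 site and 1.47% a CArG box, which none of the 7 member windows held. At the second start site of Ankrd23 there was also 1 TEAD core. These are matches of letters and say nothing of binding.

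Library totals ran from 6057756 to 21537070 counts (median 9087417). Levels are given as CPM (counts relative to the library total, scaled by the trimmed mean of M-values), and tests are edgeR quasi-likelihood tests over all 39 libraries, with an adjusted p (Benjamini-Hochberg over 21204 genes) under 0.05 called a change and SE given on the log2 scale. Overlap of a member's libraries between groups was not counted over all genes, so it is given as description and not as a test. Muscle content was followed with the mean log2 CPM of 20 genes of muscle fibres, none of them a member, called the fibre-gene mean. Most are contractile or calcium-handling genes (such as Myh4 and Atp2a1), and Mb, Ckm and Pygm are also among them. The fibre-gene mean averaged 11.5 and 10.9 at baseline in immature and mature mice, 12.1 and 12.2 at 0dpr, 9.43 and 8.98 at 2dpr, 10.1 and 9.99 at 5dpr and 9.50 and 9.75 at 14dpr. It was lower in every 2dpr library than in every 0dpr library of the same age (exact two-sided permutation p = 0.0286, the smallest that 4 against 4 libraries can give, adjusted p = 0.0613 over 15 tests). Between the ages the exact p was 0.0857 at baseline, 0.743 at 0dpr, 0.114 at 2dpr, 0.8 at 5dpr and 0.4 at 14dpr. Of the heart markers, Nppa, Nppb, Nkx2-5 and Tbx5 did not pass the authors' filter, Myl7 reached at most 2.72 CPM in a library, and Myh6 at most 7.19 CPM. Actc1 and Tnnt2, which immature or regenerating skeletal muscle also expresses, were higher, and from 2dpr to 5dpr they rose by log2 3.65 ± 0.44 and 2.03 ± 0.39 in immature mice (edgeR adjusted p = 9.67e-07 and 0.000759) and by log2 5.22 ± 0.49 and 3.37 ± 0.43 in mature mice (adjusted p = 2.05e-09 and 7.2e-07). The 8 of 12 heart genes that were tested summed to 33.5 to 65.3 CPM in immature and 25.5 to 36.3 CPM in mature libraries at 2dpr, and to 168 to 452 CPM and 295 to 760.4 CPM at 5dpr, and their part in the members' levels was not tested.

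Per kilobase of exon, Xirp2 was the most abundant member at baseline (129.9 ± 20.2 CPM per kb in immature mice, SD, n = 4), followed by Ankrd2 (72.0 ± 18.1) and Csrp3 (70.6 ± 26.6), which did not differ beyond their spread, then Xirp1 (21.9 ± 6.80), Ankrd23 (5.87 ± 1.09) and Ankrd1 (1.94 ± 0.878). The counts of Ankrd23 may miss reads on the 78.2% of its exonic bases shared with Gm42417, so its place in this order is uncertain. In mature mice at 2dpr the order was different. Ankrd1 stood at 95.4 ± 16.4 CPM per kb, beside Ankrd2 (109.6 ± 28.6), Csrp3 (98.1 ± 17.4) and Xirp2 (88.8 ± 36.2), all within their spread of each other. Ankrd1, the lowest of the 6 levels at baseline, thus lay among the abundant members in mature mice at 2dpr, a group on which it was picked. In immature mice at 2dpr it stood at 30.0 ± 6.96 CPM per kb. That was below the means of Csrp3 (68.3 ± 37.7), Ankrd2 (51.8 ± 15.3) and Xirp2 (50.4 ± 11.9).

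**Figure D1:**
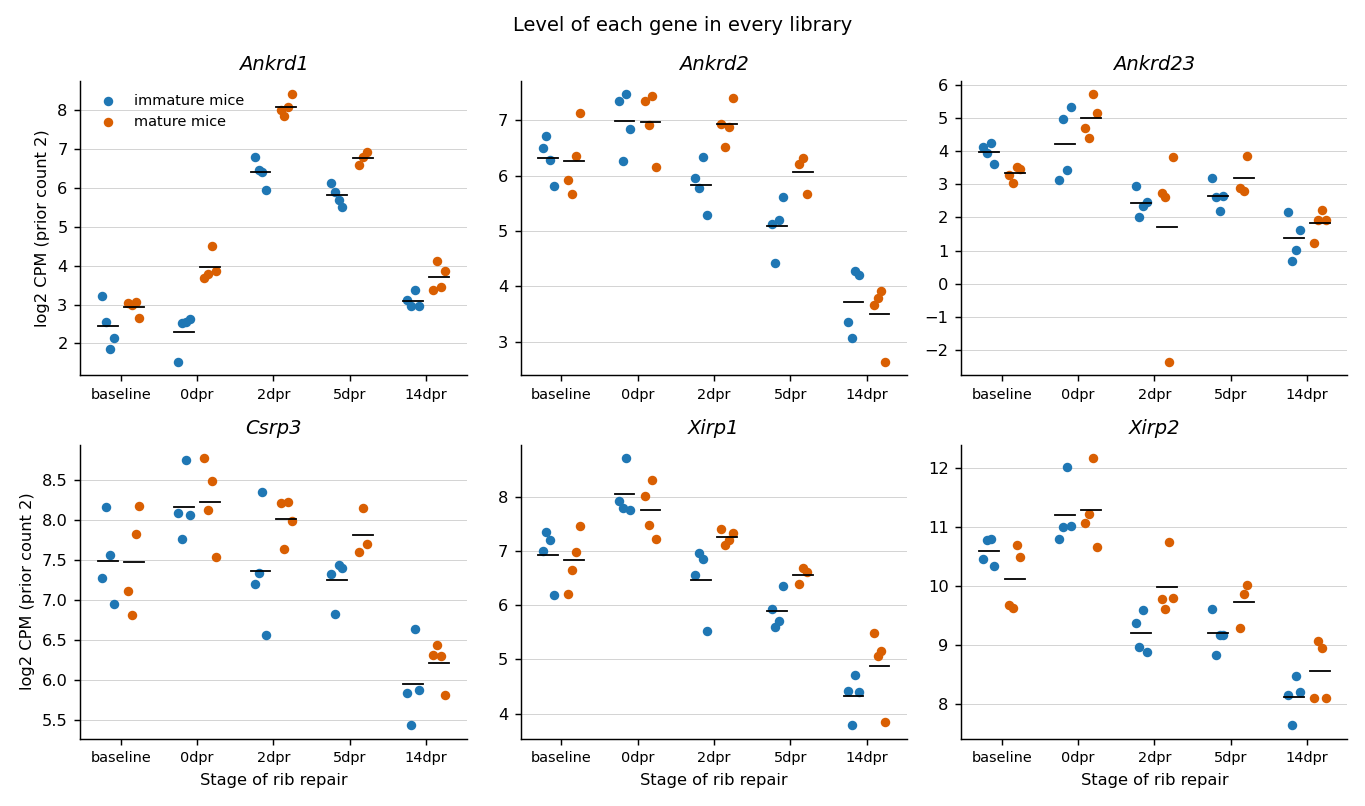
Level of each gene in every library (y axis, log2 CPM with a prior count of 2; the axis range differs between panels) at each stage of repair (x axis), with immature mice in blue, mature mice in orange and the group mean as a black line. Ankrd1 is at its highest at 2dpr at both ages, while the other 5 genes have their highest mean at 0dpr, and the lowest Ankrd23 point at 2dpr is a library with 0 reads.

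Ankrd1 was low in both ages at the start. At baseline it was at 9.14, 5.67, 3.40 and 4.21 CPM in immature mice and at 7.96, 7.80, 8.18 and 6.06 CPM in mature mice, with overlapping libraries. At 0dpr it was at 2.69, 5.55, 5.64 and 5.98 CPM in immature mice and at 12.5, 13.7, 22.7 and 14.4 CPM in mature mice, so that each mature library was above each immature one. At 2dpr it reached 111, 88.6, 84.8 and 62.1 CPM in immature mice and 257, 229.7, 273 and 341 CPM in mature mice, far above any library of the earlier stages. At 5dpr it was at 70.4, 59.0, 51.8 and 45.7 CPM in immature mice and at 96.3, 112 and 123 CPM in mature mice. At 14dpr it was at 8.41, 7.60, 10.1 and 7.65 CPM in immature mice and at 10.2, 17.1, 10.8 and 14.4 CPM in mature mice. The groups of neighbouring stages did not overlap from 0dpr to 2dpr or from 5dpr to 14dpr at either age.

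From 0dpr to 2dpr, Ankrd1 rose 17.2-fold in immature mice (log2 4.11 ± 0.26 SE, edgeR adjusted p = 8.57e-15) and 17.3-fold in mature mice (log2 4.11 ± 0.24, adjusted p = 1.63e-15). The 2dpr libraries in these comparisons, and in those of 5dpr against 2dpr that follow, are the ones on which Ankrd1 was picked. Its p-values there are not independent of that choice. From 2dpr to 5dpr it fell 2.5-fold in mature mice (log2 -1.32 ± 0.23, adjusted p = 0.000143). In immature mice the 5dpr value was 1.53-fold lower (log2 -0.62 ± 0.21) with an edgeR adjusted p of 0.0709, and it passed with 0.0363 without immature 2dpr replicate 4 and with 0.0284 when those 8 libraries alone were fitted. From 5dpr to 14dpr it fell 6.70-fold in immature mice (log2 -2.74 ± 0.24, adjusted p = 3.87e-09) and 8.37-fold in mature mice (log2 -3.07 ± 0.24, adjusted p = 3.09e-10).

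At 14dpr, Ankrd1 remained 1.75-fold above baseline in mature mice (log2 0.81 ± 0.24, edgeR adjusted p = 0.0076), with no overlap between the groups. In immature mice it was 1.51-fold above (log2 0.59 ± 0.25) with an adjusted p of 0.0687 and overlapping libraries, and it passed with 0.00533 without immature baseline replicate 2, the highest baseline library of that age, with 0.049 under edgeR's filter on low counts and with 0.0398 under no filter. The difference between the ages in this change was log2 -0.21 ± 0.35 (edgeR adjusted p = 0.941), so the ages were not shown to differ.

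The remaining members moved otherwise at 2dpr. From 0dpr, 4 of these 5 fell in immature mice and 2 in mature mice. Whether this change differed between the ages was not tested, because that would use the 2dpr contrast. A fall called at the immature age only is thus not a shown difference between the ages. Ankrd2, the stretch-responsive relative of Ankrd1 that is most abundant in slow fibres, was at 163, 76.4, 177 and 114 CPM at 0dpr and at 62.1, 54.5, 80.6 and 38.7 CPM at 2dpr in immature mice, a 2.25-fold fall (log2 -1.17 ± 0.33, edgeR adjusted p = 0.0039). In mature mice it was at 162, 121, 173 and 70.6 CPM at 0dpr and at 122, 90.8, 117 and 169 CPM at 2dpr, with overlapping libraries and a change of log2 -0.08 ± 0.32 (adjusted p = 0.866). Ankrd23 fell 4.18-fold in immature mice, from 8.52 to 40.6 CPM at 0dpr to 3.83 to 7.54 CPM at 2dpr (log2 -2.06 ± 0.54, adjusted p = 0.00202). In mature mice Ankrd23 fell 4.93-fold, from 21.1 to 52.5 CPM to 6.53, 5.98, 0 and 14.1 CPM (log2 -2.30 ± 0.53, adjusted p = 0.000473). The 0 is mature 2dpr replicate 3, where 0 reads allow up to 0.333 CPM (3 reads, counting error alone), and without that library the change was log2 -1.91 (adjusted p = 0.000264). With the 8 compared libraries alone its adjusted p was 0.0514.

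Csrp3 was at 273, 218, 429 and 268 CPM at 0dpr and at 147, 161, 327 and 94.4 CPM at 2dpr in immature mice, with overlap (log2 -0.70 ± 0.32, edgeR adjusted p = 0.0714). This value passed without immature 2dpr replicate 3, the library at 327 CPM (log2 -1.14, adjusted p = 0.00424), and with DESeq2 (log2 -0.79, adjusted p = 0.0326). In mature mice Csrp3 was at 438, 279, 358 and 186 CPM at 0dpr and at 296, 199.6, 299 and 253 CPM at 2dpr (log2 -0.27 ± 0.32, edgeR adjusted p = 0.514). The libraries overlapped here too.

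Both Xin genes fell in immature mice, and Xirp2 fell in mature mice too. Xirp1 went from 244, 223, 421 and 216 CPM to 93.9, 124, 115 and 46.0 CPM, with no overlap, a 2.91-fold fall (log2 -1.54 ± 0.31, edgeR adjusted p = 0.000106). In mature mice its libraries overlapped, at 259, 179, 318 and 150.0 CPM at 0dpr and 171, 138, 147 and 161 CPM at 2dpr (log2 -0.56 ± 0.30, adjusted p = 0.133). Xirp2, the largest of the 6 genes, went from 1772, 2033, 4141 and 2060.0 CPM to 666, 500.2, 774 and 473 CPM in immature mice, a 4.15-fold fall (log2 -2.05 ± 0.32, adjusted p = 2.66e-06). In mature mice it went from 2141, 2377, 4576 and 1622 CPM to 874, 784, 1709.8 and 886 CPM, a 2.52-fold fall (log2 -1.33 ± 0.32, adjusted p = 0.000657). Here mature 2dpr replicate 3 lay above the lowest 0dpr library, so the groups overlapped. It is the same library in which Ankrd23 had 0 reads.

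Among all genes tested, 44% were called between 0dpr and 2dpr in immature mice and 47.6% in mature mice, against 5 and 3 of the 6 members. The medians over the members were log2 -1.35 and -0.41, against -0.04 and -0.05 over all genes. The 20 fibre genes all fell at both ages, with medians of log2 -2.75 and -3.18. The fitted values of the 5 members other than Ankrd1 all lay above the fibre-gene median at both ages, and the gap was tested on a scale relative to the fibre genes.

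**Figure D2:**
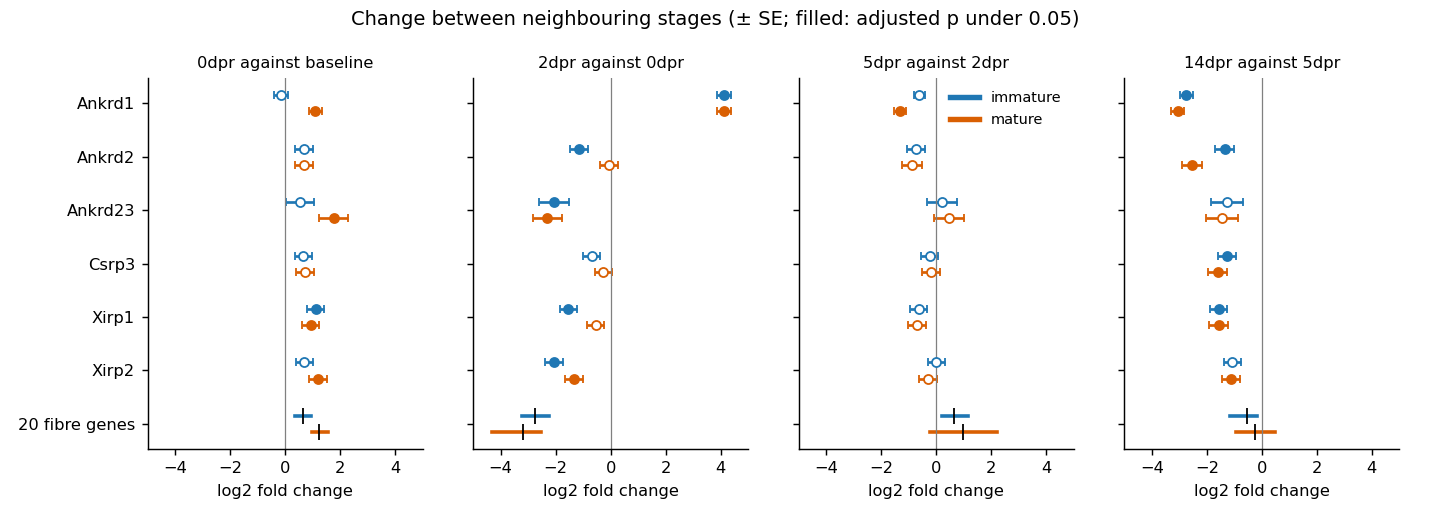
Log2 fold change (x axis) of each gene between neighbouring stages, with SE as bars, immature mice in blue and mature mice in orange. Filled points have an edgeR adjusted p under 0.05, and the bottom lines span the 20 fibre genes with their median as a black tick. Ankrd1 lies at log2 4.11 for 2dpr against 0dpr at both ages, on the opposite side of 0 from the fibre genes, and every member is below 0 for 14dpr against 5dpr.

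At 0dpr against baseline, more members passed in mature than in immature mice. The age difference in this change passed for 0 of 6 members (edgeR adjusted p from 0.431 to 0.999), beside 0.0141% of all genes. A larger count at 1 age is thus not a shown difference between the ages. In mature mice Ankrd1 (2.12-fold, log2 1.08 ± 0.24, edgeR adjusted p = 0.0012), Ankrd23 (3.39-fold, log2 1.76 ± 0.52, adjusted p = 0.0132), Xirp1 (1.90-fold, log2 0.92 ± 0.31, adjusted p = 0.0266) and Xirp2 (2.28-fold, log2 1.19 ± 0.31, adjusted p = 0.00585) rose, 4 of 6 beside 22.5% of all genes. The fibre-gene median was log2 1.24 higher there, and all 20 fibre genes rose. Without mature 0dpr replicate 3, the library with the highest fibre-gene mean of that group, 1 of the 6 passed, which was Ankrd1, and without mature baseline replicate 4 all 6 passed. The Xirp1 call was also lost without mature baseline replicate 1 or 2 or mature 0dpr replicate 1 (adjusted p from 0.0678 to 0.111). In immature mice Xirp1 rose (2.16-fold, log2 1.11 ± 0.31, adjusted p = 0.0187), 1 of 6 beside 10.6% of all genes. This call was lost without immature baseline replicate 6 (adjusted p = 0.0854), without immature 0dpr replicate 3 (0.118) and with those 8 libraries alone (0.101). Ankrd1 was at log2 -0.15 ± 0.26 in immature mice (adjusted p = 0.767).

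Between 2dpr and 5dpr, 0 of 6 members passed in immature mice, beside 8.05% of all genes, with 3 members at an unadjusted edgeR p under 0.05 and 0 called by DESeq2. In mature mice 1 of 6 passed, Ankrd1, beside 14.5% of all genes. From 5dpr to 14dpr the members fell, 4 of 6 in immature mice beside 3.18% of all genes and 5 of 6 in mature mice beside 4.18%. The fibre genes had smaller values over this step (median log2 -0.52 in immature and -0.23 in mature mice, with 2 and 0 of 20 called). Ankrd2 fell 2.55-fold in immature mice (log2 -1.35 ± 0.35, edgeR adjusted p = 0.0217) and 5.79-fold in mature mice (log2 -2.53 ± 0.37, adjusted p = 3.98e-05). Csrp3 fell 2.39-fold (log2 -1.26 ± 0.32, adjusted p = 0.0221) and 3.04-fold (log2 -1.61 ± 0.34, adjusted p = 0.00385), and Xirp1 2.98-fold at both ages (adjusted p = 0.00265 and 0.00355). Xirp2 fell in mature mice (log2 -1.13 ± 0.33, adjusted p = 0.047) and was at log2 -1.08 ± 0.31 in immature mice (adjusted p = 0.0504), and Ankrd23 did not pass at either age. In immature mice the Ankrd2 call was lost in 4 of 8 fits without 1 library (adjusted p from 0.051 to 0.109), and the Csrp3 call in 5 of 8 (0.0613 to 0.106). The count there was 2 without 14dpr replicate 1, without 14dpr replicate 2 or without 5dpr replicate 2. In mature mice the Xirp2 call was lost in 5 of 7 fits without 1 library and held in 3 of 6 other alternatives. In immature mice Xirp2 passed in 1 of 8 fits without 1 library and in 4 of 6 other alternatives. Whether the change from 5dpr to 14dpr differed between the ages was not tested.

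By 14dpr the other 5 members were below baseline at both ages, with no overlap between libraries. In immature mice all 5 fell, beside 31.4% of all genes called, from 2.93-fold for Csrp3 (log2 -1.55 ± 0.33, edgeR adjusted p = 0.000288) to 6.24-fold for Xirp1 (log2 -2.64 ± 0.33, adjusted p = 8.77e-08). In mature mice the same 5 fell and Ankrd1 rose, 6 of 6 called beside 33.5% of all genes. The falls there ran from 2.55-fold for Csrp3 (log2 -1.35 ± 0.32, adjusted p = 0.00116) to 7.07-fold for Ankrd2 (log2 -2.82 ± 0.36, adjusted p = 1.05e-07). At 14dpr Ankrd2 was at 8.21 to 19.1 CPM in immature and 6.02 to 14.9 CPM in mature mice, against 50.4 to 139.8 CPM over both ages at baseline. The Ankrd23 fall in mature mice (log2 -1.52 ± 0.55, adjusted p = 0.032) passed in 3 of 8 fits without 1 library, while the others passed in all of them. The fibre-gene medians were log2 -2.08 in immature and -1.37 in mature mice. The change from baseline to 14dpr differed between the ages for 0 of 6 members (edgeR, 0.0472% of all genes called), with 0 at an unadjusted p under 0.05 and 0 by DESeq2.

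To compare the members with the muscle in the same piece, the fibre-gene mean of each library was subtracted from the log2 CPM of each gene, and the result was tested with limma. Most genes of the tissue are not muscle genes, so on this scale 93.6% of all genes were called between 0dpr and 2dpr in each age, and the members' 5 of 6 calls at each age are no more than that background. What can be read is the order among muscle genes. For Ankrd1 the 2dpr libraries are those on which it was picked, so its p-values here are not independent of that choice. Ankrd1 gained log2 6.80 ± 0.31 over the fibre genes in immature mice (limma adjusted p = 3.7e-21) and log2 7.36 ± 0.31 in mature mice (adjusted p = 2.36e-22), and in mature mice at 2dpr its level was -1.15 to -0.63 relative to the fibre-gene mean, against -8.55 to -7.93 at 0dpr. Ankrd2 gained log2 1.56 ± 0.33 and 3.20 ± 0.33, Csrp3 1.90 ± 0.30 and 3.02 ± 0.30, Xirp1 1.12 ± 0.31 and 2.73 ± 0.31, and Xirp2 0.71 ± 0.25 and 1.94 ± 0.25, in immature and mature mice in turn. All 8 of these passed (limma adjusted p from 4.03e-12 to 0.00859). The median over all genes on this scale was log2 2.70 in immature and 3.07 in mature mice. Ankrd2, Csrp3, Xirp1 and Xirp2 all lay below it in immature mice, and in mature mice all of them but Ankrd2 did. The 20 fibre genes had medians of -0.02 and 0.07, the 11 fast-fibre genes -0.08 and -0.10, the 26 titin and Z-disc partners 0.78 and 1.20 and the 10 slow-fibre genes 1.29 and 1.07. The subtraction itself fixes the mean of the 20 fibre genes, and all fast-fibre genes except Pvalb are among them. The medians of those lists are therefore no independent comparison.

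Ankrd23 did not pass on this scale, at log2 0.93 ± 0.62 (limma adjusted p = 0.15) for the immature and log2 -0.05 ± 0.62 (adjusted p = 0.938) for the mature age. Without mature 2dpr replicate 3, where it had 0 reads, the mature value was log2 1.29 (adjusted p = 0.00175). The reference also mattered in immature mice. With the slow-fibre genes as reference 1 of the 6 members passed there, which was Ankrd1 at log2 5.48, and with the titin and Z-disc partners 3 passed.

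**Figure D3:**
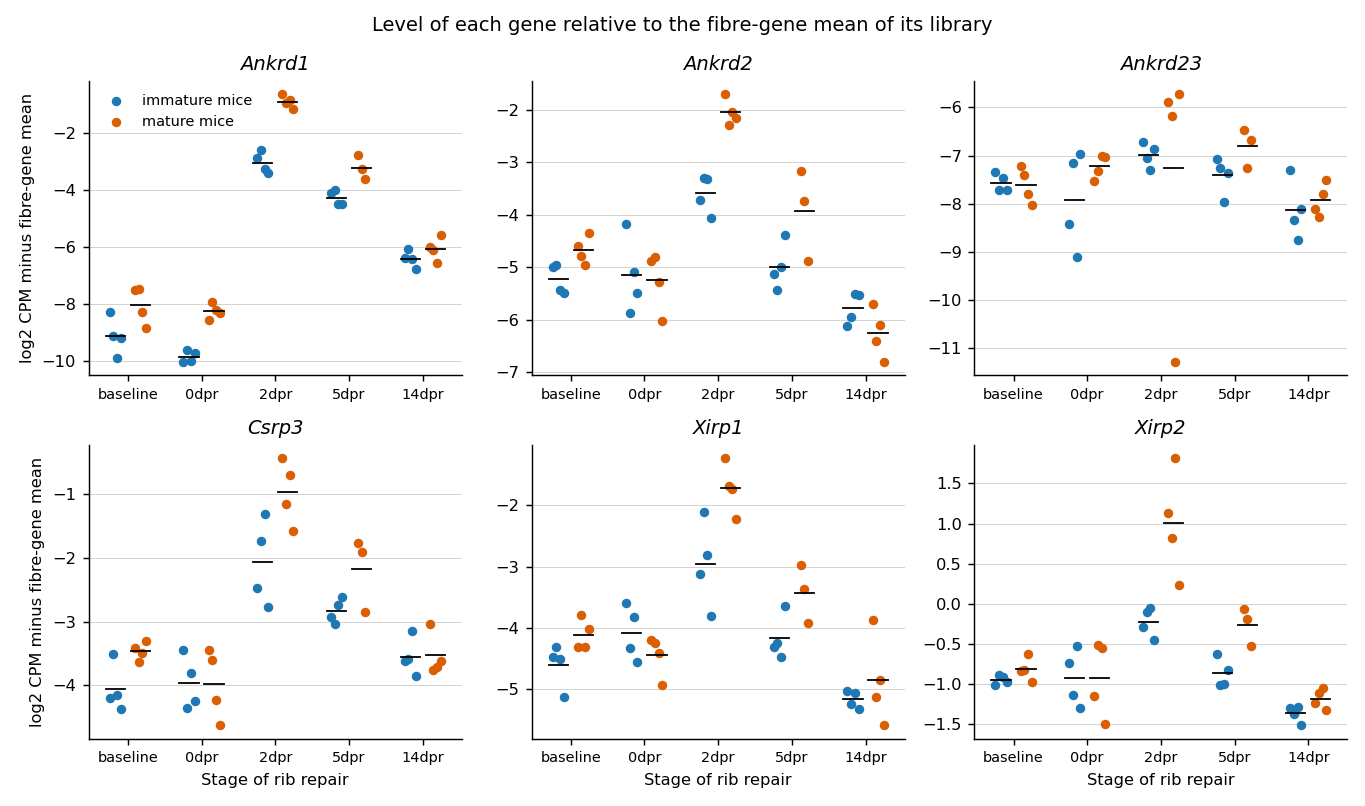
Level of each gene as log2 CPM minus the fibre-gene mean of the same library (y axis; the range differs between panels) at each stage (x axis), with immature mice in blue, mature mice in orange and the group mean as a black line. Relative to the fibre genes the members other than Ankrd23 have their highest mean at 2dpr at both ages, and in mature mice Xirp2 then lies 0.23 to 1.82 above the fibre-gene mean.

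At 0dpr against baseline 0 of 6 members passed relative to the fibre genes, beside 11.7% of all genes in immature and 69.6% in mature mice (1 and 0 members at an unadjusted limma p under 0.05). The rise of 4 members on the CPM scale in mature mice was thus not shown to differ from that of the fibre genes. At 14dpr against baseline, Ankrd1 gained log2 2.71 ± 0.31 over the fibre genes in immature mice (limma adjusted p = 6.35e-10, 1 of 6 called beside 86.9% of all genes). In mature mice it gained log2 1.97 ± 0.31 (adjusted p = 1.47e-06). The medians over all genes on this scale were log2 2.02 and 1.17. The level of Ankrd1 at 14dpr was still below the fibre-gene mean, at a mean of -6.40 in immature and -6.04 in mature mice. In mature mice Ankrd2 (log2 -1.57 ± 0.33, adjusted p = 0.000116) and Xirp1 (log2 -0.75 ± 0.31, adjusted p = 0.0375) fell more than the fibre genes, 3 of 6 called beside 61.7% of all genes. The Xirp1 call was lost in 5 of 8 fits without 1 library and with the compared libraries alone (adjusted p = 0.0608). In immature mice 3 more members passed with the titin and Z-disc partners or the slow-fibre genes as reference, all of them falling relative to it.

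**Figure D4:**
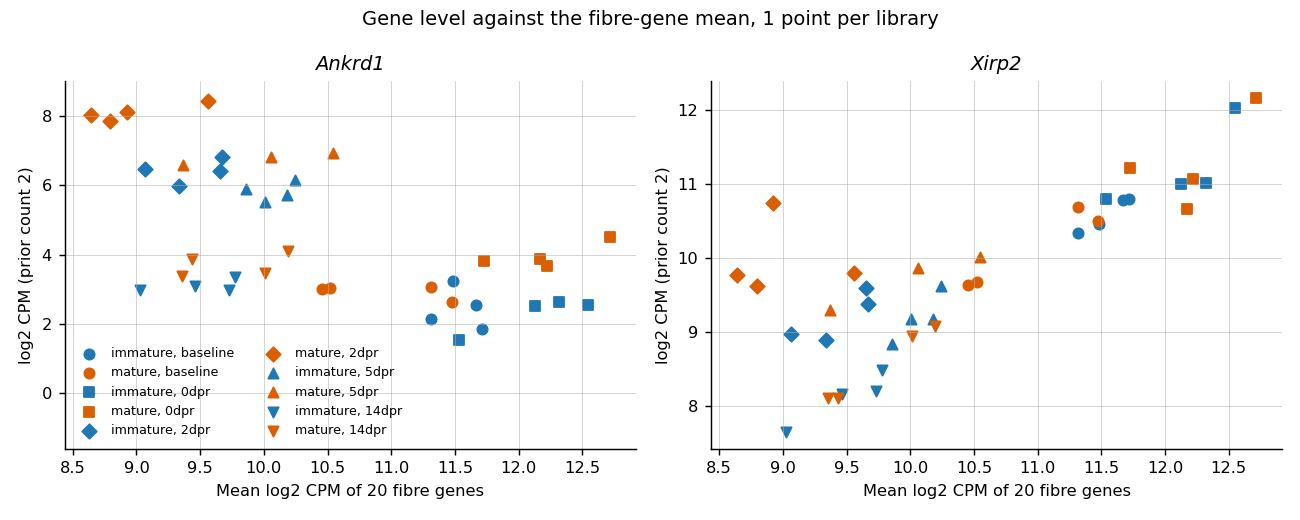
Level of Ankrd1 (left) and Xirp2 (right) as log2 CPM (y axis) against the mean log2 CPM of the 20 fibre genes (x axis), 1 point per library, with colour for age and marker shape for stage. Over the 39 libraries Xirp2 goes up with the fibre genes (r = 0.81) and Ankrd1 down (r = -0.62), and the 2dpr libraries of Ankrd1 lie at the top left.

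Across the 39 libraries, which share their stages and depth, Ankrd2, Csrp3, Xirp1 and Xirp2 rose and fell together, with Pearson r of 0.85 to 0.95 between log2 CPM values. Ankrd23 was looser (r = 0.45 to 0.62 with those 4), and Ankrd1 stood apart, with r from -0.29 to 0.20 with the other 5. The correlation with the fibre-gene mean was -0.62 for Ankrd1, 0.77 for Ankrd23, 0.81 for Xirp2, 0.61 for Xirp1, 0.51 for Ankrd2 and 0.50 for Csrp3. These coefficients describe the course over stages and are given without a test.

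Between the ages, Ankrd1 was lower in immature mice at 0dpr, a stage not used to pick it. Its 4 immature libraries (2.69 to 5.98 CPM) lay below its 4 mature libraries (12.5 to 22.7 CPM), a 3.17-fold difference (log2 -1.66 ± 0.25, edgeR adjusted p = 0.000199). It was 1 of the 6 members to pass at 0dpr, beside 0.726% of all genes. Relative to the fibre genes the difference was log2 -1.58 ± 0.31 (limma adjusted p = 0.00903, 1 of 6 beside 0.156% of all genes), and the fibre-gene mean itself was 12.1 in immature and 12.2 in mature mice. With the 8 libraries of 0dpr alone the adjusted p was 0.166 on the CPM scale, with the same size (log2 -1.66), and 0.51 relative to the fibre genes. On the CPM scale the call held without any 1 of the 8 libraries, while relative to the fibre genes it was lost without immature replicate 1 (0.0513) or mature replicate 2 (0.0539).

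At 0dpr the other 5 members did not pass. Their log2 differences ran from -0.57 ± 0.51 for Ankrd23 to 0.29 ± 0.30 for Xirp1, with edgeR adjusted p of 0.753 to 0.998. At baseline 0 of 6 passed, beside 0.585% of all genes, and 0 had an unadjusted edgeR p under 0.05 or were called by DESeq2. Ankrd1 was then at log2 -0.43 ± 0.25 (adjusted p = 0.548). The change from baseline to 0dpr differed between the ages by log2 -1.24 ± 0.36 for Ankrd1 (unadjusted p = 0.00135, edgeR adjusted p = 0.431). None of the 6 passed that test, beside 0.0141% of all genes, with 1 at an unadjusted p under 0.05 and 0 by DESeq2. The ages were thus not shown to differ in that change.

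Relative to the fibre genes at baseline 0 of 6 passed, beside 0.396% of all genes (1 at an unadjusted limma p under 0.05). That was Ankrd1, at log2 -1.10 ± 0.31 (limma adjusted p = 0.0914), which passed without mature baseline replicate 4 (0.0168), without immature baseline replicate 2 (0.0335) and with the slow-fibre genes as reference (0.0333). Its immature libraries were at -9.87 to -8.26 and its mature ones at -8.83 to -7.46, so that they overlapped. The fibre-gene mean was 11.5 in immature and 10.9 in mature mice at that stage.

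At 2dpr, the contrast on which Ankrd1 was picked and in which 0.627% of all genes were called, its value was log2 -1.67 ± 0.22, a 3.18-fold lower level in immature mice. Ankrd2 was at log2 -1.08 ± 0.33, Xirp2 at -0.82 ± 0.31, Xirp1 at -0.70 ± 0.31, Csrp3 at -0.52 ± 0.32 and Ankrd23 at -0.33 ± 0.53. The libraries of the ages did not overlap for Ankrd1, Ankrd2 (38.7 to 80.6 against 90.8 to 169 CPM), Xirp1 (46.0 to 124 against 138 to 171 CPM) or Xirp2 (473 to 774 against 784 to 1709.8 CPM). They overlapped for Csrp3 and Ankrd23. The share of all genes without such overlap was not counted. The fibre-gene mean was in the other direction, 9.43 in immature and 8.98 in mature mice, and the median of the 20 fibre genes was log2 0.34. Relative to the fibre genes Ankrd1 lay at -3.37 to -2.59 in immature and -1.15 to -0.63 in mature mice. No test is given for any of these values, because the gene set was drawn up on this contrast.

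**Figure D5:**
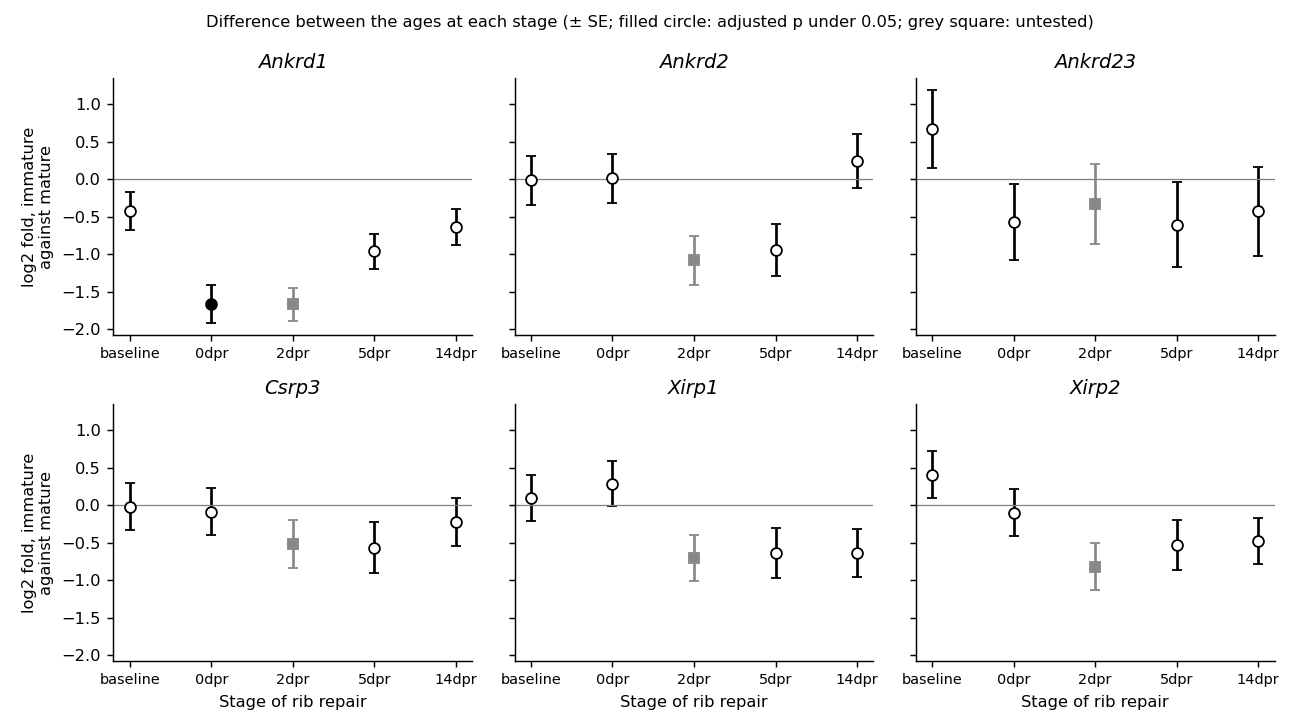
Log2 fold of immature against mature mice (y axis, negative where immature mice are lower) with SE as bars, at each stage (x axis). The filled circle (Ankrd1 at 0dpr) has an edgeR adjusted p under 0.05, open circles do not, and grey squares at 2dpr are untested. Ankrd1 lies at log2 -0.43 at baseline, which did not pass the test, and at -1.67 at 2dpr, the contrast on which the genes were chosen.

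At 5dpr Ankrd1 was at log2 -0.96 ± 0.23 (unadjusted p = 0.000158, edgeR adjusted p = 0.308) and Ankrd2 at log2 -0.94 ± 0.35 (adjusted p = 0.706), and the libraries of the ages did not overlap for either, nor for Csrp3 (log2 -0.57 ± 0.34) or Xirp1 (log2 -0.64 ± 0.33). How many of all genes were likewise without overlap was not counted, so this does not show a difference between the ages. The count of called genes was 0 over all genes (0%) and 0 of 6 members at 5dpr, with 1081 genes and 2 members at an unadjusted edgeR p under 0.05, and 33 genes and 0 members called by DESeq2. Relative to the fibre genes it was also 0 of 6 (limma, 0.00472% of all genes), with 4 members at an unadjusted p under 0.05. At 14dpr Ankrd1 was at log2 -0.64 ± 0.24 (edgeR adjusted p = 0.922), without overlap of the libraries, and 0 of 6 members passed on the CPM scale (0.00943% of all genes) and relative to the fibre genes (limma, 0.00943%). There 1 member had an unadjusted edgeR p under 0.05, 0 an unadjusted limma p under 0.05, and 0 were called by DESeq2.

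Genes related to the members by function were counted from fixed lists. Between 0dpr and 2dpr 44% of all genes were called in immature and 47.6% in mature mice, in either direction. Of 26 titin and Z-disc partners tested, 24 fell and 0 rose from 0dpr to 2dpr at each age, with medians of log2 -1.92 and -2.00. Examples in immature mice are Ttn, titin itself (log2 -2.82 ± 0.34, edgeR adjusted p = 2.04e-08), Myoz1, a Z-disc calsarcin (log2 -2.95 ± 0.31, adjusted p = 1.14e-09), and Myoz3 (log2 -2.83 ± 0.43, adjusted p = 1.37e-06). In mature mice Tcap, the titin cap, fell by 3.94 on the log2 scale (SE 0.36, adjusted p = 2.87e-11).

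Genes commonly used as YAP, TEAD or SRF targets moved in both directions. Of 18 tested, those that rose from 0dpr to 2dpr numbered 5 at the immature and 3 at the mature age, and those that fell 7 and 5 (medians log2 -0.30 and -0.32). Beside them 44% and 47.6% of all genes were called, and the mature count was close to that share. Fosl1, an AP-1 subunit, rose by log2 5.79 ± 0.82 (edgeR adjusted p = 4.16e-07) in immature mice and 6.11 ± 0.86 (adjusted p = 3.05e-07) in mature mice from group means under 1 CPM, and Fhl2, a LIM protein of muscle, by 1.43 ± 0.24 and 0.90 ± 0.24. Tead1, which encodes a TEAD factor, fell by 1.52 ± 0.21 and 1.57 ± 0.21 on the log2 scale (adjusted p = 3.58e-07 and 1.44e-07), and Egr1, an immediate early gene, was at log2 -2.74 ± 0.52 and -1.98 ± 0.50 (adjusted p = 4.42e-05 and 0.00134).

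Of 14 muscle regeneration genes, the immature mice had 10 that rose over the same step and the mature mice 6, and 1 gene, Des, fell at each age (medians log2 1.25 and 0.44). Over all genes 44% and 47.6% were called at this step in either direction. Mymk, which drives myoblast fusion, rose by log2 5.77 ± 0.78 in immature mice, from 0.148 to 8.92 CPM (edgeR adjusted p = 1.71e-07), and by 2.70 ± 0.73 in mature mice (adjusted p = 0.00253). Myog, the myogenic factor of differentiating myoblasts, rose by log2 3.28 ± 0.30 in mature mice (adjusted p = 4.58e-11). Of 12 genes linked to wasting and denervation, 4 (immature) and 5 (mature) rose and 3 at each age fell. Those that fell were led by Fbxo32, an atrophy ubiquitin ligase (log2 -2.53 ± 0.35 in immature mice, adjusted p = 2.38e-07), and those that rose included Runx1, a factor induced in denervated muscle (log2 1.35 ± 0.20, adjusted p = 7.1e-07).

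The lists for other cell types are set beside the 44% (immature) and 47.6% (mature) of all genes called between 0dpr and 2dpr. All 10 leukocyte genes rose from 0dpr to 2dpr at both ages (medians log2 2.35 and 2.05), and 8 of 9 marrow erythroid genes fell in immature mice and 9 of 9 in mature mice. Cd68, a macrophage protein, rose by log2 3.95 ± 0.23 and 3.63 ± 0.23 (edgeR adjusted p = 2.7e-15 and 5.82e-15). Of 9 smooth muscle genes 6 fell at the immature age, with 1 that rose, and 7 fell at the mature age. Of the 8 heart genes tested 2 rose and 2 fell at each age, with Tnnt2, also a gene of immature skeletal muscle, up by log2 2.77 ± 0.45 and 1.84 ± 0.44. The count of heart genes called was close to the share over all genes. The part of these cell types in the rise of Ankrd1 was not tested.

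The genes most like Ankrd1 were sought among 16141 genes with a mean of at least 1 CPM, by Pearson r of log2 CPM over the 39 libraries. The 8 highest were Rrad (r = 0.91), Aif1l, Cbr2, Npl, Ap1b1, Tbc1d1, Cct3 and Tpm3 (r = 0.88). Rrad, a small GTPase known for regulating calcium channels in muscle, was at 4.15 ± 1.38 and 5.13 ± 1.08 CPM at baseline, 53.2 ± 11.9 and 149 ± 94.0 CPM at 2dpr and 14.4 ± 3.28 and 19.4 ± 5.72 CPM at 14dpr (immature and mature, SD, n = 4). In mature mice Aif1l, an actin-bundling protein, went from 5.37 ± 1.69 CPM at baseline to 59.9 ± 8.68 CPM at 2dpr. Tpm3, a tropomyosin of slow fibres and of non-muscle cells, was the member of the slow-fibre list that rose from 0dpr to 2dpr (log2 0.86 ± 0.12 and 0.66 ± 0.12, edgeR adjusted p = 4.17e-07 and 2.67e-05). Tpm3 was picked here for its likeness to Ankrd1, which is highest at 2dpr, so this rise is not independent of that choice.

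When the linear dependence on the fibre-gene mean was first taken out of each gene, the 8 genes most like Ankrd1 were Cacng1 (r = 0.92), Hectd2os, Cap2, Des, Itga7, Mustn1, Serinc2 and Pdlim3 (r = 0.87). Des encodes desmin, the intermediate filament of the Z-disc, Itga7 the laminin receptor of muscle fibres and Cacng1 a subunit of the muscle calcium channel. Des fell from 1347 ± 292 and 1686 ± 485 CPM at 0dpr to 652 ± 103 and 918 ± 408 CPM at 2dpr. Mustn1, a small gene of the musculoskeletal system, was at 61.1 ± 11.3 and 79.9 ± 28.7 CPM at 0dpr and at 121 ± 31.9 and 368 ± 341 CPM at 2dpr.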

How the data were processed

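Bulk RNA sequencing of 39 of the 40 labelled libraries was used, from total RNA of mouse rib tissue prepared with a stranded kit. According to the submitters' processing notes and the study's methods, the authors mapped and counted reads with STAR 2.5.2a on GRCm38. The deposited counts are raw reads per gene, and a second deposited table keeps the genes that passed the authors' filter on low counts. The deposited CPM signal is scaled by the authors with the trimmed mean of M-values, and it equals the values that edgeR gives from the filtered counts. Sequencing was done in separate runs, which the labels do not assign to libraries, so run and group cannot be told apart.

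Groups came from the labels. Tests on counts used edgeR 4.0.16 (quasi-likelihood, 1 coefficient per group, all 39 libraries) in R 4.3.3. The study's own tool, DESeq2 (here 1.42.0), was an alternative. Log2 CPM with a prior count of 2, minus the mean of the 20 fibre genes of the same library, was tested with limma 3.58.1. An adjusted p under 0.05 was called. The methods say of the experiments in general that individual biological samples were used. The labels do not tie libraries to animals, so p-values measure the spread between these samples. No 2 libraries of a group agreed within counting noise.

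The members, lists and tests were chosen with earlier results of these data known. From each list the text may name up to 3 genes per direction with the largest change among those past the threshold and at a mean of at least 1 CPM, and the 8 genes most like Ankrd1. The alternatives were other size factors, filters, a replicate block, the compared libraries alone, DESeq2, other muscle references, another prior count and leaving out 1 library.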

Additional observations from a re-analysis of the deposited data

Results flagged for a closer look

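Of 54 groups of 4 libraries examined (1 gene in 1 group each), 4 had 1 library far from the other 3. Chance alone picks out about 1 group in 20. Ankrd1 in immature mice at 0dpr had its lowest library at 2.69 CPM (replicate 1). In the same group, Xirp1 had its highest library at 421 CPM and Xirp2 at 4141 CPM (both replicate 3). Xirp2 in mature mice at 2dpr had its highest library at 1709.8 CPM (replicate 3), and without it the difference between the ages at 2dpr was log2 -0.49 in place of -0.82, both given without a test.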

How the results depend on the processing

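The rise of Ankrd1 from 0dpr to 2dpr passed in all 6 alternatives on the CPM scale and in all 8 fits without 1 library at both ages (log2 3.94 to 4.24 in immature and 3.98 to 4.31 in mature mice). All of these fits use the 2dpr libraries on which Ankrd1 was picked, so they are not independent of that choice. The replicate numbers do not pair the samples (mean correlation of deviations 0.00847 over 154 same-numbered pairs, 11 of them over 0.1). With the number as a replicate block, 0 members in place of 1 passed for 0dpr against baseline in immature mice and 3 in place of 1 relative to muscle for 14dpr against baseline in immature mice. For single members in immature mice the block ended the calls of Xirp1 at 0dpr against baseline (adjusted p = 0.093) and Ankrd2 at 14dpr against 5dpr (0.0552), and added Csrp3 at 2dpr against 0dpr (0.0311), Xirp2 at 14dpr against 5dpr (0.0357) and, relative to muscle, Ankrd2 (0.0274) and Xirp1 (0.00658) at 14dpr against baseline. The block turned the sign of small values: Ankrd2 (0.15) and Csrp3 (0.10) between the ages at baseline, Ankrd2 between the ages at 0dpr (-0.012), Ankrd2 in the age difference of the 0dpr change (-0.16), and, relative to muscle, Ankrd2 (-0.14) and Csrp3 (-0.10) for 0dpr against baseline in immature mice. With the compared libraries alone, the members called were 0 for 0dpr against baseline in immature mice, 1 and 2 for 5dpr against 2dpr in immature and mature mice, 0 between the ages at 0dpr on both scales, and 4 for 14dpr against baseline relative to muscle in immature mice. Fewer libraries stand behind the spread in those fits. Xirp2 at 5dpr against 2dpr in immature mice turned to 0.015 with other size factors, 0.017 with edgeR's filter and 0.015 with DESeq2. The cause was not tested.

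Other muscle references moved counts and small values. With the slow-fibre genes 2 members passed for 0dpr against baseline in mature mice, 1 for 2dpr against 0dpr and 4 for 14dpr against baseline in immature mice, and 1 between the ages at baseline, and with the titin and Z-disc partners 3 and 4 passed for those immature comparisons. Values that turned for 2dpr against 0dpr in immature mice were Ankrd23 (-0.40), Xirp1 (-0.21) and Xirp2 (-0.62) with slow-fibre genes and Xirp2 (-0.21) with titin partners. Between the ages, Xirp2 turned at 0dpr with the summed CPM (-0.00069) and at 5dpr with slow-fibre genes (0.0031), and Csrp3 at 14dpr with titin partners (0.067) and slow-fibre genes (0.076).

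Leaving out 1 library gave 0 to 1 member for 0dpr against baseline in immature and 1 to 6 in mature mice, 0 to 1 for 5dpr against 2dpr and 2 to 5 for 14dpr against 5dpr in immature mice. Relative to muscle it gave 0 to 1 for 0dpr against baseline and 1 to 2 for 14dpr against baseline in immature mice, and 0 to 1 between the ages at baseline and at 0dpr. Of the values that changed sign, 1 was called after the change, Ankrd23 at 2dpr against 0dpr relative to muscle in mature mice (log2 1.29, limma adjusted p = 0.00175, without mature 2dpr replicate 3). On the CPM scale they ran from -0.36 to 0.18 (Ankrd1, 0dpr against baseline, immature), -0.26 to 0.057 (Ankrd2, 2dpr against 0dpr, mature), and for 5dpr against 2dpr from -0.46 to 0.20 (Csrp3, immature), -0.16 to 0.13 (Xirp2, immature) and -0.45 to 0.028 (Xirp2, mature). Between the ages they ran at baseline from -0.20 to 0.34 (Ankrd2), -0.30 to 0.24 (Csrp3) and -0.076 to 0.33 (Xirp1), and at 0dpr from -0.20 to 0.20 (Ankrd2), -0.31 to 0.13 (Csrp3) and -0.45 to 0.31 (Xirp2). The age difference of the 0dpr change ran from -0.33 to 0.22 (Ankrd2), -0.32 to 0.22 (Csrp3) and -0.0825 to 0.42 (Xirp1), and that of the 14dpr change from -0.38 to 0.12 (Ankrd1), -0.098 to 0.45 (Ankrd2) and -0.49 to 0.084 (Csrp3). Relative to muscle, 0dpr against baseline ran from -0.26 to 0.31 (Ankrd2), -0.67 to 0.048 (Ankrd23), -0.082 to 0.28 (Csrp3) and -0.11 to 0.15 (Xirp2) in immature and -0.25 to 0.077 (Xirp2) in mature mice, and in mature mice 2dpr against 0dpr from -0.55 to 1.29 (Ankrd23) and 14dpr against baseline from -0.24 to 0.0026 (Csrp3). Relative to muscle between the ages, the ranges were -0.088 to 0.18 (Ankrd23, baseline), -0.23 to 0.33 (Ankrd2, 0dpr), -0.20 to 0.19 (Csrp3, 0dpr), -0.19 to 0.14 (Xirp2, 0dpr), -0.48 to 0.0028 (Ankrd23, 14dpr), -0.16 to 0.14 (Csrp3, 14dpr) and -0.55 to 0.026 (Xirp1, 14dpr).

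Depth limits the lowest Ankrd23 and early Ankrd1 values, at a few CPM in libraries of 6057756 counts and more.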
